A study of Macaca mulatta with 12 samples.

Results

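IGHV4 is a family of immunoglobulin heavy chain variable (V) genes. Its members were taken as every cell with exactly 1 productive heavy chain contig whose V gene name begins with IGHV4, which gave 6150 of 12528 such cells in the blood of 6 rhesus macaques. These cells carried 38 IGHV4 genes and 6013 distinct clones, a clone being 1 combination of animal, V gene, joining (IGHJ) gene and CDR3 bases. The authors had annotated 5114 of the cells to a B cell subtype, and these 5114 cells, with 5060 of the 10268 annotated clones and 37 of the 38 genes, are described here. Another 159 IGHV4 cells lay in a cluster that the authors named Contamination, and 877 were not in the expression table.

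The animals were healthy juveniles of Indian origin, 2 males and 4 females of 2 to 3 years, for which the labels give neither a genotype nor a treatment. Mononuclear cells from each animal gave a droplet library of mRNA 5' ends and an enriched B cell receptor library, 12 libraries in all. Both males formed batch 1 and all females batch 2, so sex and batch cannot be told apart. Animals are named by sex and order, and n counts animals. Between 467 (female 4) and 2345 (female 3) annotated clones were recovered per animal, of which 224 to 1178 were IGHV4, and the median IGHV4 contig rested on 6 to 15 UMIs (molecules counted after amplification).

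A heavy chain variable exon is assembled in each developing B cell from 1 V, 1 diversity and 1 joining segment. The V segment encodes the first 2 antigen contact loops (CDR1 and CDR2), while CDR3 spans the junction of the V, diversity and joining segments. Naive cells carry the segment as inherited, and after antigen contact the cell can acquire base substitutions by somatic hypermutation and can switch from IgM and IgD to IgG, IgA or IgE. The heavy chain pairs with a kappa or a lambda light chain.

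Some marker genes were examined in the IGHV4 cells. CD79A, a signalling subunit of the B cell receptor, stood at 1372 ± 305 CPM (counts scaled to the same total in each animal; SD, n = 6) and MS4A1 (CD20) at 1024 ± 267. The T cell list (5 of 5 genes measured) summed to 88.1 ± 47.7 CPM (49.7 to 178 over animals), the NK list (4 of 4) to 37.7 ± 26.4 (13.5 to 85.0) and the monocyte list (5 of 5) to 54.1 ± 20.7 (29.2 to 89.2); their part in the results was not tested. ITGAX, which encodes CD11c, was at 10.2 ± 5.04 CPM in Naive B cells 1, 630 ± 231 in CD11c+ MBC 1 and 741 ± 254 in CD11c+ MBC 2. TCL1A, a gene of naive B cells, was at 93.8 ± 57.7 CPM in Naive B cells 1 and is given for that subtype alone. Markers of the other subtypes, M-MZL BC and M-MBC 1 among them, are not given here, so their names are taken as deposited. CD27 and HBB were not among the named genes of the expression table. Exactly 1 heavy chain was found in 78.1% of annotated B cells, from 16.6% in Naive B cells 2 to 90.6% in Naive B cells 1. No gene named IGHV4 was in the expression table, so V gene identity comes from the receptor contigs alone. Libraries of different animals shared 81 barcodes among cells with 1 heavy chain, but 0 clones were found in more than 1 animal.

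Because no germline reference was at hand, the V regions are shown as the animals' own common sequences, meaning an identical stretch from the first framework base to the last base before CDR3 in 3 or more distinct IgM or IgD clones of the same gene and animal. There were 83 such sequences under 32 gene names. IGHV4-173, the most used gene, is shown first because its sequence is the 1 common sequence seen in all 6 animals. IGHV4-169 follows with its first and its second most frequent sequence, and IGHV4-122 likewise, because both genes differed between subtypes below. Capitals mark the bases at which the second sequence differs from the first.
IGHV4-173, sequence 1: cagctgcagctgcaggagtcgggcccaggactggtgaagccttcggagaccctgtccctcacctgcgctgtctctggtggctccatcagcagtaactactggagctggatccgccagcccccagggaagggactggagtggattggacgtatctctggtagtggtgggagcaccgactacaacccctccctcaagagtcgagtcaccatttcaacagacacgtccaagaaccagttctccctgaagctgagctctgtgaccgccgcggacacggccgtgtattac
IGHV4-169, sequence 1: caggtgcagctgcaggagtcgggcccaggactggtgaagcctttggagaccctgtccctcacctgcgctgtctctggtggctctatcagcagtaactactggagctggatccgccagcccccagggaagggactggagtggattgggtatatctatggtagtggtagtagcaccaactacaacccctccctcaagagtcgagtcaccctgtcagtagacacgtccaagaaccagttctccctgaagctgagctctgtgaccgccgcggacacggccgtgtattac
IGHV4-169, sequence 2: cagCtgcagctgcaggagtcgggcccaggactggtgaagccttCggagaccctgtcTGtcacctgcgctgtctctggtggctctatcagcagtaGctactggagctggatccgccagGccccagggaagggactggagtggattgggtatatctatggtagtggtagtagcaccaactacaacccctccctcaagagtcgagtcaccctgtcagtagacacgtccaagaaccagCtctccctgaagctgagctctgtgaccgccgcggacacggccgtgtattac
IGHV4-122, sequence 1: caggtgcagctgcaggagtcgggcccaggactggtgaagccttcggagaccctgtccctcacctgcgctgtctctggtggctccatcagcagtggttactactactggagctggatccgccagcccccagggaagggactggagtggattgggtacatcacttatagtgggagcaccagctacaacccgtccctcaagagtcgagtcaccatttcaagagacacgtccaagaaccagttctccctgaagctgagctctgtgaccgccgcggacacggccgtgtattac
IGHV4-122, sequence 2: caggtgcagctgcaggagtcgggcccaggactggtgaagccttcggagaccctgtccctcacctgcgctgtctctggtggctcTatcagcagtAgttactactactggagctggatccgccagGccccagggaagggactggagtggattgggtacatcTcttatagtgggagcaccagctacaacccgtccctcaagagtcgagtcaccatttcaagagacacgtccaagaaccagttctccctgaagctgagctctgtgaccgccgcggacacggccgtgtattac
The IGHV4-169 sequences differed at 7 of 285 bases and the IGHV4-122 sequences at 4 of 288. Sequence 1 of IGHV4-169 came from male 1 and female 3, and sequence 2 from male 2 and females 1, 2 and 4. Sequence 1 of IGHV4-122 also came from male 1 and female 3, and sequence 2 from male 2 and females 1 and 2.

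The antigen contact loops of the other most used genes, and of IGHV4-73, which paired more with kappa chains, are compared in the stretch from CDR1 to CDR2, with both loops in capitals as the contig annotation bounds them.
IGHV4-80: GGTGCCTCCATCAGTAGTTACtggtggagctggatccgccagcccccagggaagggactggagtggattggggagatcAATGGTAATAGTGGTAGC
IGHV4-127: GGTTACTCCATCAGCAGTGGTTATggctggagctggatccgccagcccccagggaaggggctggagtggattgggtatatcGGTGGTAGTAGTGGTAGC
IGHV4-65: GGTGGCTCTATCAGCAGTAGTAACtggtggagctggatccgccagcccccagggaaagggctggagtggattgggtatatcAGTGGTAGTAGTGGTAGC
IGHV4-76: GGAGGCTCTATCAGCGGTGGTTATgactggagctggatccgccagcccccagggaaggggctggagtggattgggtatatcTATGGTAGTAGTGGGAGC
IGHV4-160: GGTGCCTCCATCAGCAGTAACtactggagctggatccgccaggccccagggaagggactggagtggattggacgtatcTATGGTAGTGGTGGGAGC
IGHV4-73: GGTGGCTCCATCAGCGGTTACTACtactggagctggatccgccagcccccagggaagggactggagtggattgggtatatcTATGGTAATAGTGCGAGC
The stretch was 96 bases long in IGHV4-80 and IGHV4-160 and 99 in the other 4 genes, with the difference of 1 codon in CDR1 as annotated.

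Over pairs of gene names whose common sequences were equally long, the nearest common sequences differed by 4 to 63 bases, with a median of 18 over 203 pairs. IGHV4S13 and IGHV4S16 were the closest, 4 of 291 bases apart, and are printed with those bases in capitals.
IGHV4S13: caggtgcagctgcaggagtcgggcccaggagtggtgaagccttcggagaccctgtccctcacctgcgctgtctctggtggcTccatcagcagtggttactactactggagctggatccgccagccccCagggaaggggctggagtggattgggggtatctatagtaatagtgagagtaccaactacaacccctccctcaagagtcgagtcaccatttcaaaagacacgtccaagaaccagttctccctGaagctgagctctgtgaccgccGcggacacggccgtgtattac
IGHV4S16: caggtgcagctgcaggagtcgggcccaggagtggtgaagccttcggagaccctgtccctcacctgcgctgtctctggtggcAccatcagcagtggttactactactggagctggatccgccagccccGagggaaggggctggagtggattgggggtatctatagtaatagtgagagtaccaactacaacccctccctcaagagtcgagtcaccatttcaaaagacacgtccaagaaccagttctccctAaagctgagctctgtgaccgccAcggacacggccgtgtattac
The 2 names were used in different animals. IGHV4S13 held 33 clones in male 1 and 71 in female 3, and 0 to 2 in the others. IGHV4S16 held 33 clones in female 1, 22 in female 2 and 7 in female 4, 1 in female 3 and 0 in both males. Close neighbours such as these are reported as uncertain, since a hypermutated contig could be given the name of its neighbour.

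IGHV4 clones made up 49.4% ± 2.13 (SD, n = 6) of all annotated clones, from 46.1% in male 1 to 52.3% in female 2. IGHV3, the next family, held 34.6% ± 1.85. IGHV4 was the larger family in each of the 6 animals, and its share varied little between them. Relative to their means, the shares of genes inside the family varied far more.

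The most used gene was IGHV4-173, with 4.88% ± 1.71 of all clones (lowest 2.64% in female 3, median 4.59%, highest 7.66% in male 2). IGHV4-169 held 4.15% ± 1.68 (2.77%, 3.44% and 6.99% in the same order of lowest, median and highest), and IGHV4-122 held 4.05% ± 2.82 (1.60%, 3.19% and 9.34%). These 3 genes were found in every animal, and female 3 was highest for the last 2. IGHV4-80 held 4.00% ± 3.03, at 8.42% in male 2 and at 0 clones in male 1. IGHV4-127 followed with 2.93% ± 1.11 (1.54%, 2.99% and 4.19%), IGHV4-65 with 2.71% ± 1.20 (1.36%, 2.72% and 4.39%), IGHV4-76 with 2.69% ± 2.51 and IGHV4-160 with 2.28% ± 1.46. IGHV4-76 was absent from male 1 and IGHV4-160 from male 2. The means of neighbours in this order differed by less than the SD over animals. The remaining 30 genes each averaged at most 2.18% of clones.

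Of the 38 genes, 7 had 3 or more clones in all 6 animals (IGHV4-173, IGHV4-169, IGHV4-122, IGHV4-127, IGHV4-65, IGHV4-73 and IGHV4-93). At the other end, 29 genes had 0 clones in at least 1 animal, 4 reached 3 clones in a single animal (IGHV4-57 in male 1, IGHV4S26 in female 2, IGHV4S27 and IGHV4S35 in female 3), and 4 stayed under 3 clones in every animal (IGHV4-86, IGHV4S22, IGHV4S30 and IGHV4S31, the last with its only clone outside the annotated cells). Male 1 carried 18 genes with 3 or more clones, male 2 carried 16, and the females carried 22 to 26. With 0 of 979 IGHV4 clones, a gene's share of the IGHV4 clones of male 1 can be up to 0.306% (3 clones, counting error only), whereas in male 2 IGHV4-80 alone held 167 of 994.

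**Figure D1:**
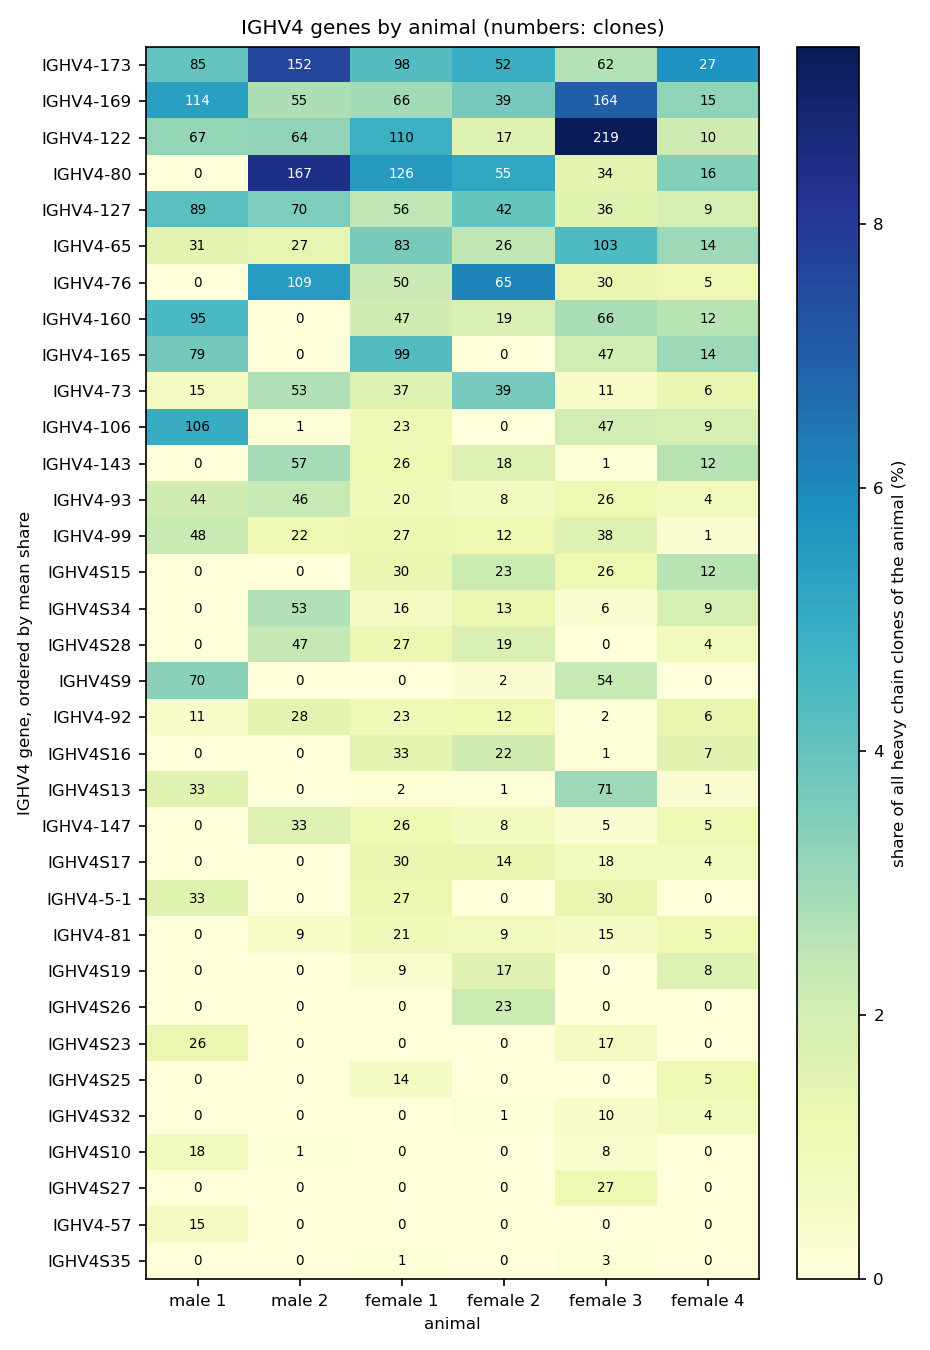
Share of all heavy chain clones for each IGHV4 gene (rows, ordered by mean share) in each animal (columns), with the number of clones printed in each cell, for the 34 genes with 3 or more clones in at least 1 animal. IGHV4-173 is filled in all 6 animals, while IGHV4-80 has 0 clones in male 1 against 167 in male 2, and IGHV4S9 has 70 in male 1 and 54 in female 3 against 0 to 2 elsewhere.

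The males differed in which genes they carried. Genes with 0 clones in male 1 held 475 of the IGHV4 clones of male 2 (47.8%), among them IGHV4-80, IGHV4-76 and IGHV4-143. Genes with 0 clones in male 2 held 351 of the IGHV4 clones of male 1 (35.9%), among them IGHV4-160, IGHV4-165 and IGHV4S9. Sharing of common sequences also varied between animals. Male 1 and female 3 had 10 common sequences in common, which is 50% of the 20 of male 1 and 32.3% of the 31 of female 3. Male 2 and female 1 shared 17 (70.8% of 24 and 47.2% of 36), whereas the 2 males shared 3 (15% of 20 and 12.5% of 24). Of the 83 sequences, 51 were seen in 1 animal, 16 in 2, 10 in 3, 5 in 4, 0 in 5 and 1 in all 6. No sequence stood under more than 1 gene name. Female 4, with the fewest clones, had 6 common sequences, of which 4 each were shared with male 2, female 1 and female 2.

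An animal has at most 2 copies of a single-copy gene. Of 101 combinations of animal and gene with a common sequence, 70 had 1, 25 had 2, 5 had 3 and 1 had 4. The 6 combinations with over 2 sequences (5.94%) lay under IGHV4-169 (4 in female 3 and 3 in female 1), IGHV4-122, IGHV4-80, IGHV4-76 and IGHV4S34. IGHV4-169 in all held 9 distinct common sequences, at 4 to 10 differences from sequence 1 above. A name can therefore stand for more than 1 sequence, and for IGHV4-169 the values below are sums over them.

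Between females and males, 23 of the 38 genes passed the filter of the gene test (30 or more clones in all, found in 4 or more animals), and edgeR's quasi-likelihood test called 0 of 23 at an adjusted p under 0.05. The background over all 57 V genes tested was 0%. Without adjustment 4 of the 23 had p under 0.05, beside 5 of the 57 V genes. The smallest adjusted p was 0.0548 for IGHV4S15 and IGHV4S17. IGHV4S15 had 30, 23, 26 and 12 clones in females 1 to 4 and 0 in both males, and IGHV4S17 had 30, 14, 18 and 4 against 0. DESeq2 called 3 genes (IGHV4S15, IGHV4S16 and IGHV4S17) and TMM scaling 2 (IGHV4S15 and IGHV4S17), all higher in females. Without male 1 edgeR called 2 genes and without male 2 it called 5, but these fits have a single male, who is assumed to vary like the females. They include genes with 0 clones in that male, such as IGHV4-80 without male 2 and IGHV4-160 without male 1.

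Across subtypes, the question was whether the IGHV4 family or any gene in it is used more or less by memory cells than by naive cells. The family as a whole was used at 51.9% ± 5.42 of clones in Naive B cells 1 and at 51.0% ± 2.44 over the 6 memory subtypes (those with MBC in their name). The difference was -0.918 points ± 6.64 (SD, n = 6), lower in 4 animals and higher in 2, with p = 0.8125 in an exact two-sided sign-flip permutation test whose smallest p for 6 animals is 0.03125. Female 4 had the lowest share in Naive B cells 1 (43.8%) and the highest in memory cells (55.1%). Without female 1 or without female 2 the mean difference was above 0, at 0.165 and 0.226.

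M-MZL BC had the lowest mean IGHV4 share of the subtypes, 43.1% ± 3.79. It was 40.4% in male 1, 43.7% in male 2 and 48.1%, 45.5%, 43.4% and 37.3% in females 1 to 4. In Naive B cells 1 it was 47.6%, 54.8%, 55.4%, 58.4%, 51.5% and 43.8% in the same order. Each of the 6 animals was lower in M-MZL BC, by -8.84 points ± 2.57 on average. The exact permutation p was 0.03125, the smallest possible, and 0.25 after adjustment over the 8 subtypes tested, so the difference did not pass the threshold. With 6 animals, 1 subtype alone at the smallest p cannot pass this adjustment, so the adjusted test cannot decide for M-MZL BC. C-MBC 1 (48.7% ± 3.86) was lower than Naive B cells 1 in 5 of 6 animals, with an exact permutation p of 0.0625 (adjusted 0.25). The other 6 subtypes tested stood between 46.8% ± 11 (Activated B cells) and 53.8% ± 5.50 (M-MBC 1), each with animals on both sides of their own Naive B cells 1.

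**Figure D2:**
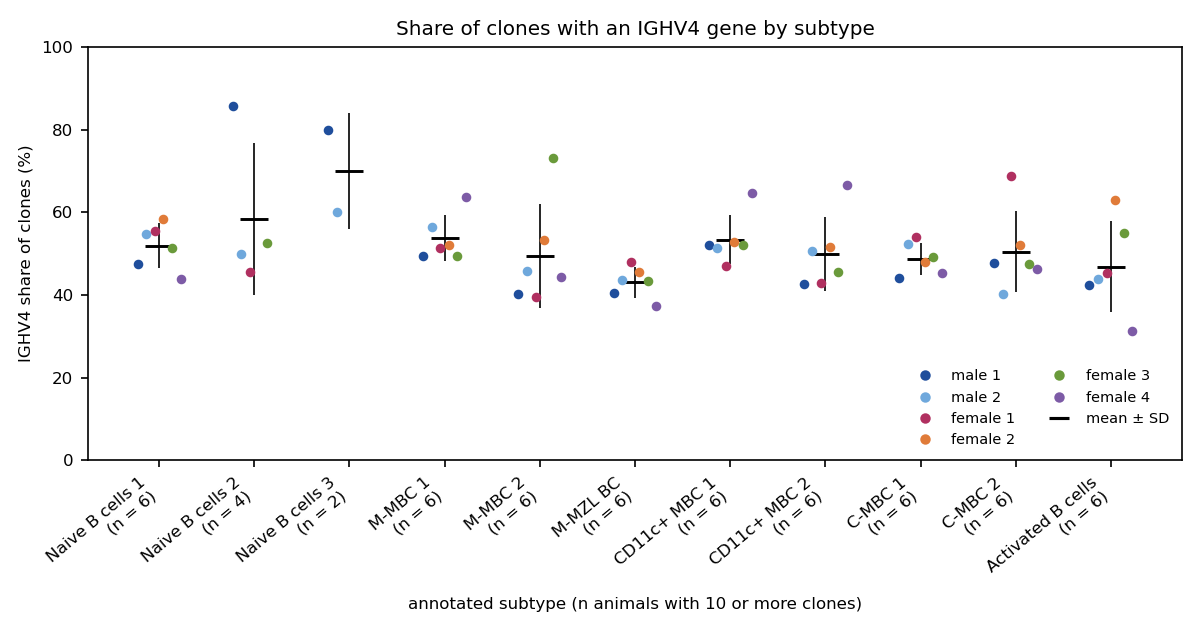
IGHV4 share of distinct clones (vertical axis, percent) in each annotated subtype, with 1 point per animal with 10 or more clones and the mean ± SD in black. M-MZL BC sits lowest, between 37.3% and 48.1%, and each animal is below its own value in Naive B cells 1. Naive B cells 2 and 3 rest on 4 and 2 animals and few clones.

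For single genes, clone counts of all V genes were fitted over subtypes with the animal as a block. At an adjusted p under 0.05, 11 of 513 combinations of gene and subtype were called (2.14% of those tested), and 3 of these 11 were among the 207 combinations of an IGHV4 gene. IGHV4-169 was higher in CD11c+ MBC 1 and in M-MBC 1, and IGHV4-122 was lower in M-MZL BC. In CD11c+ MBC 1, 1.75% of the 57 V genes were called, in M-MBC 1 1.75% and in M-MZL BC 5.26%. In Activated B cells 8.77% of V genes were called but 0 of 23 IGHV4 genes (4 at an unadjusted p under 0.05 in edgeR, 2 called with TMM scaling and 1 with DESeq2). Over all 513 combinations 1.36% were called higher and 0.78% lower. Without adjustment, 20 of the 207 had p under 0.05. Among the 23 IGHV4 genes and all 57 V genes, these unadjusted counts were 4 and 13 in Activated B cells. They were 2 and 8 in C-MBC 1, 1 and 5 in C-MBC 2, 1 and 1 in CD11c+ MBC 1, and 2 and 4 in CD11c+ MBC 2. M-MBC 1 had 1 and 4, M-MBC 2 had 4 and 12, M-MZL BC had 3 and 15, and Naive B cells 2 had 2 and 3.

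IGHV4-169 took 3.66% of the Naive B cells 1 clones of male 1, 1.70% in male 2, and 1.24%, 1.12%, 5.28% and 4.49% in females 1 to 4. In CD11c+ MBC 1 it took 7.59%, 5.68%, 1.78%, 4.35%, 9.79% and 7.84% in the same order. Every animal was higher in the memory subtype, female 1 by the least, although the ranges of the subtypes overlapped. The smallest sums of an animal held 89 clones of all V genes in Naive B cells 1, 51 in CD11c+ MBC 1 and 33 in M-MBC 1. Low shares in such sums rest on a few clones, so the direction there is uncertain. The means were 2.92% ± 1.80 and 6.17% ± 2.86 (45 and 120 clones). The log2 change was 1.04 ± 0.28 (SE), with an adjusted p of 0.0167 in edgeR's quasi-likelihood test.

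In M-MBC 1, a subtype with mostly unswitched clones, IGHV4-169 took 6.15%, 3.85%, 4.41%, 3.95%, 10.6% and 6.06% of clones, again above Naive B cells 1 in 6 of 6 animals. The mean was 5.83% ± 2.53 (108 clones), a log2 change of 1.01 ± 0.28 with an adjusted p of 0.0206 in edgeR's quasi-likelihood test. The gene was not called in CD11c+ MBC 2, where it held 3.47% ± 1.58 of clones (log2 change -0.02 ± 0.36), nor in C-MBC 1 at 2.79% ± 1.79 (0.11 ± 0.38). Whether it differs between these subtypes themselves was not tested. M-MZL BC (4.12% ± 1.88) and Activated B cells (4.40% ± 1.72) lay between.

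The clones of IGHV4-169 were spread over several of its sequences in these subtypes. Assigned to the nearest common sequence of their own animal, 22.2% of the 45 clones in Naive B cells 1 lay nearest to sequence 1 and 22.2% nearest to sequence 2. In CD11c+ MBC 1 the shares were 26.7% and 25.8% of 120, and in M-MBC 1 they were 25.9% and 28.7% of 108. Sequence 4, common in male 1 only, held 22.2% of the clones in Naive B cells 1, 9.17% in CD11c+ MBC 1 and 6.48% in M-MBC 1. These shares pool the animals, which contribute unequally to each subtype, and were not tested.

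IGHV4-122 was the gene used less. In Naive B cells 1 it held 4.12% and 4.76% of clones in males 1 and 2, and 8.26%, 2.25%, 12.9% and 3.37% in females 1 to 4. In M-MZL BC it held 2.49%, 1.86%, 5.06%, 0%, 6.57% and 0%. All 6 animals were lower, females 2 and 4 with 0 clones. The smallest sums of an animal held 89 clones of all V genes in Naive B cells 1 and 88 in M-MZL BC. Low shares in such sums rest on a few clones, so the direction there is uncertain. The means were 5.94% ± 3.96 and 2.66% ± 2.68 (96 and 42 clones), and the log2 change was -0.98 ± 0.28 with an adjusted p of 0.0268 in edgeR's quasi-likelihood test. In the other 8 subtypes its fitted change was also below 0, from -0.29 in M-MBC 1 to -1.25 in C-MBC 2, and none of these passed in edgeR. DESeq2 and TMM scaling each called the gene lower in M-MZL BC and in 4 of these 8 as well, namely Activated B cells (-1.56 and -1.55), C-MBC 2 (-2.14 and -2.24), M-MBC 2 (-1.29 and -1.31) and Naive B cells 2 (-2.82 with both). As a set, 8 of the 23 IGHV4 genes tested had a fitted change above 0 in M-MZL BC, with a median of -0.31, beside 26 of 57 and -0.05 over all V genes tested.

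**Figure D3:**
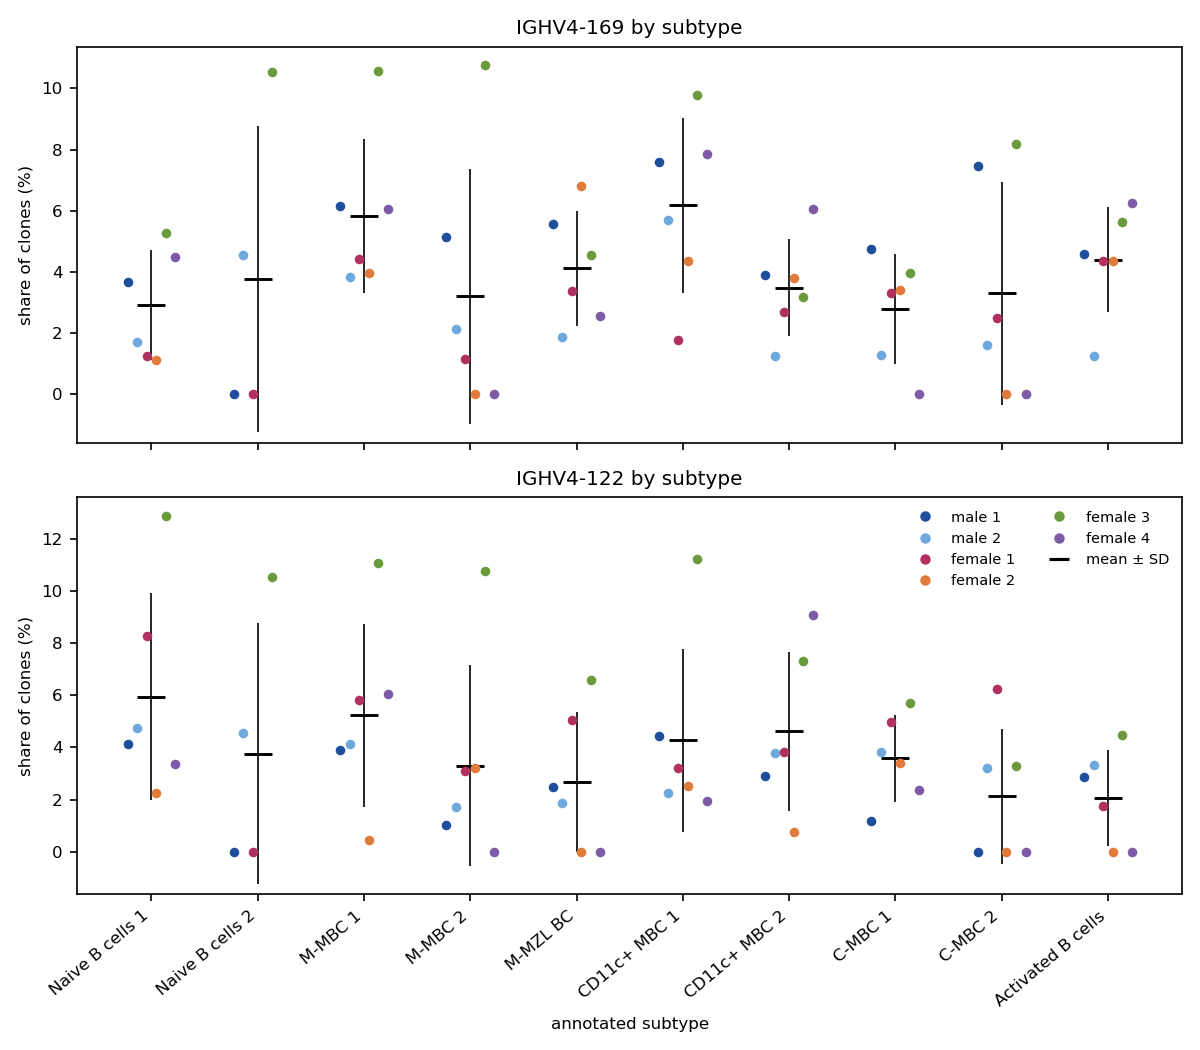
Share of distinct clones (vertical axis, percent) held by IGHV4-169 (top) and IGHV4-122 (bottom) in each subtype tested, with 1 point per animal with 10 or more clones and the mean ± SD in black. IGHV4-169 is higher in CD11c+ MBC 1 (mean 6.17%) and M-MBC 1 (5.83%) than in Naive B cells 1 (2.92%), and IGHV4-122 falls from 5.94% to 2.66% in M-MZL BC.

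These 3 calls rest on the pairing within animals and on both males. Without male 1 or without male 2 none of them passed (adjusted p from 0.0949 to 0.141 in edgeR), without female 1 or female 3 only IGHV4-169 in CD11c+ MBC 1 did, and without the animal block all 3 stood at 0.998. IGHV4-169 in M-MBC 1 was also lost with TMM scaling (0.0638) and DESeq2 (0.0549), and IGHV4-122 in M-MZL BC with no filter on low counts (0.0544). TMM scaling lowered the fitted median of all genes by more than 0.1 in 7 of the 9 subtypes, by -0.18 in M-MZL BC. It called 1 higher and 9 lower IGHV4 combinations in place of 2 and 1, with 5 of the 9 for IGHV4-122. The count over all V genes with TMM scaling is not given here.

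Class switching separated the subtypes strongly. The share of switched IGHV4 clones was 0.160% ± 0.393 in Naive B cells 1, 9.44% ± 4.99 in M-MBC 1, 2.40% ± 2.46 in M-MZL BC, 31.8% ± 24.0 in CD11c+ MBC 1, 70.4% ± 18.7 in CD11c+ MBC 2, 79.6% ± 11.5 in C-MBC 1 and 81.0% ± 5.0 in C-MBC 2. In other IGHV clones it was 25.9% ± 12.7, 66.1% ± 15.0, 77.2% ± 14.2 and 80.0% ± 9.18 in the last 4 of these. Female 4 alone was at 78.8% in CD11c+ MBC 1, where the other animals ran from 12.2% to 30.3%. Of the IGHV4 cells, 3065 carried IGHM, 790 IGHD, 1096 IGHG1, 87 IGHA, 16 IGHG2, 6 IGHE, 3 IGHG3 and 1 IGHG4, and 50 had no constant gene. How the authors named the subtypes is not given in the sources used here. Their expression table holds constant genes such as IGHM and IGHE, so class and subtype are not treated as independent.

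No IGHV4 gene was called between 1193 switched and 3818 unswitched IGHV4 clones. Of 57 V genes tested, 0% passed edgeR's quasi-likelihood test, which called 0 of the 23 IGHV4 genes. DESeq2 and TMM scaling also called 0 IGHV4 genes. Without adjustment, 2 of the 23 had p under 0.05 in edgeR, beside 10 of the 57 V genes. IGHV4S16 came nearest, at 2.97%, 3.05%, 0.125% and 3.03% of the switched clones of females 1 to 4 against 0.870%, 1.74%, 0% and 0.671% of the unswitched ones. It was higher in all 4 females that carried it, in female 3 on 1 clone. The log2 change was 1.48 ± 0.38, with an adjusted p of 0.0550 in edgeR. The gene was called when every cell was counted in place of clones (edgeR adjusted p 0.00892). It rests on 31 switched and 30 unswitched clones. IGHV4S13 lies 4 bases away, so a mutated switched contig of either gene could bear the other name, which was not tested.

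V region substitutions were counted over the last 270 bases before CDR3. The reference was the closest common sequence of that stretch in the same gene and animal. These substitutions are a proxy for hypermutation and followed the subtypes. In IGHV4 clones they numbered 0.0647 ± 0.0574 per 100 bases in Naive B cells 1, 0.657 ± 0.214 in M-MBC 1 (n = 5), 1.67 ± 0.897 in CD11c+ MBC 1, 2.63 ± 0.337 in M-MZL BC and 5.40 ± 0.955 in C-MBC 1 (n = 5). Each animal was above its own Naive B cells 1 in all 8 subtypes compared. Clones of Naive B cells 1 are themselves among the IgM and IgD clones that supply the common sequences. Their low value and the direction of the contrast are therefore partly built in, and the p-values are not an independent test. The exact permutation p was 0.03125 in M-MZL BC and CD11c+ MBC 1 and 0.0625, the smallest for 5 animals, in the others, with an adjusted p of 0.0625 throughout. M-MBC 1 and CD11c+ MBC 1, the subtypes in which IGHV4-169 was higher, were the 2 with the lowest values among the memory subtypes.

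Switched IGHV4 clones differed at 4.92 ± 0.725 per 100 bases and switched clones of other families at 4.80 ± 1.00. The difference of 0.121 ± 0.536 (higher in 4 of 6 animals) had p = 0.5625 in the exact permutation test, and without male 1 it was -0.0233. Unswitched IGHV4 clones stood at 1.38 ± 0.204, and 52.4% of them equalled a common sequence. A reference could be had for 88.0% of the switched IGHV4 clones and 85.4% of the others, and a common sequence that is itself mutated or an allele under 3 clones would lower or raise the value.

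The IGHJ genes joined to IGHV4 and to other clones were compared, and none of the 7 passed the threshold after adjustment. IGHJ4, the most used joining gene, was found in 59.6%, 58.2%, 55.8%, 51.3%, 52.2% and 50.4% of the IGHV4 clones of males 1 and 2 and females 1 to 4. In other IGHV clones it was found in 59.6%, 60.8%, 57.8%, 56.9%, 57.3% and 59.3%. IGHV4 was lower in 6 of 6 animals, with a difference of -0.0128 points in male 1. The mean difference was -4.02 points ± 3.11, with an exact two-sided permutation p of 0.03125, and -6.96 within Naive B cells 1 with the same p. IGHJ5-1 was in 17.3% ± 3.67 of IGHV4 clones against 11.7% ± 2.85 (higher in 6 of 6), and IGHJ2 in 4.36% ± 1.13 against 2.52% ± 0.752 (6 of 6). IGHJ6 was in fewer (9.40% ± 0.932 against 14.1% ± 1.57, lower in 6 of 6). Over the 7 IGHJ genes these 4 had an adjusted exact permutation p of 0.0547 each. All 4 stood at 0.03125, the smallest p of 6 animals, so the adjusted value depended on how many of the 7 reached it. IGHV4-169 was joined to IGHJ5-1 in 23.5% ± 4.3 against 16.9% ± 3.68 of the other IGHV4 clones, higher in 6 of 6 animals, which was not tested.

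The heavy CDR3 of IGHV4 clones was 15.97 ± 0.20 amino acids long on average, counted with the conserved cysteine and tryptophan at its ends, and that of other clones 15.74 ± 0.29. The difference was 0.228 ± 0.280, higher in 5 of 6 animals, with an exact permutation p of 0.125. Within IGHV4 the length depended on subtype. It was 16.8 ± 0.221 in Naive B cells 1 and 15.0 ± 0.261 in M-MZL BC, where animals ran from 14.5 to 15.2. M-MBC 2 was at 14.9 ± 0.712, and M-MBC 1, CD11c+ MBC 1, CD11c+ MBC 2 and C-MBC 2 at 16.2 ± 0.427, 16.0 ± 0.360, 16.1 ± 0.730 and 16.1 ± 0.570. In these 6 subtypes CDR3 was shorter than in Naive B cells 1 in 6 of 6 animals, with an exact permutation p of 0.03125 and an adjusted p of 0.0417 over 8 subtypes. C-MBC 1 (16.4 ± 0.597, shorter in 5 of 6) did not pass, with an adjusted exact permutation p of 0.156. Activated B cells were at 15.3 ± 0.685, shorter in 5 of 5 animals. Their exact permutation p was 0.0625, the smallest for 5 animals, and 0.0714 after adjustment. In other IGHV clones no subtype passed. M-MZL BC was at 14.8 ± 0.365 against 16.4 ± 0.555 in Naive B cells 1. M-MBC 2 was at 15.2 ± 0.498 and Activated B cells at 14.8 ± 0.360. Each was shorter in 6 of 6 animals, with an exact permutation p of 0.03125 and an adjusted p of 0.0833. With p at its smallest, the adjusted p depended on how many of the 8 subtypes reached it. Whether the change differs between the families was not tested.

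Among single V genes, limma's moderated test over animals called 5 of 47 (10.6%) for CDR3 length and 0 of the 19 IGHV4 genes tested, 5 of which had an unadjusted p under 0.05. IGHV4-99 was nearest, shorter than all other clones of the animal by -0.909 ± 0.275 amino acids (SE) in 5 of 5 animals, with an adjusted p of 0.0607 in limma. IGHV4-169 was shorter in 6 of 6 animals (-0.659 ± 0.243, limma adjusted p 0.0992). IGHV4-173 was longer in 5 of 6 (0.85 ± 0.297, limma adjusted p 0.0974). With 10 or more clones per gene and animal IGHV4-99 and IGHV4-73 were called, and without female 4 also IGHV4-147.

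A kappa light chain was found in 46.1% and 45.4% of the IGHV4 clones of males 1 and 2 and in 51.6%, 54.5%, 59.1% and 51.4% of those of females 1 to 4, among 4636 IGHV4 clones with exactly 1 light chain. Other clones stood at 45.6%, 42.7%, 47.0%, 51.3%, 53.5% and 46.7%. The IGHV4 clones were higher in 6 of 6 animals, by 3.55 points ± 1.84 on average, with an exact two-sided permutation p of 0.03125, the smallest possible. Unlike the p-values over subtypes and IGHJ genes, this p was not adjusted for other tests. The gap was narrowest in male 1 at 0.460 points. Within Naive B cells 1 it was 3.53 points, higher in 4 of 6 animals, with an exact permutation p of 0.344.

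Kappa clones were richer in 2 IGHV4 genes. Of the 57 V genes tested between kappa and lambda clones, 10.5% were called, and of the 23 IGHV4 genes IGHV4-169 and IGHV4-73 were higher in kappa and none was lower. IGHV4-169 paired with kappa in 55.4%, 63.3%, 62.9%, 72.2%, 69.7% and 53.3% of its clones in males 1 and 2 and females 1 to 4 (mean 62.8% ± 7.49, 266 of 415 clones). That was above all other clones of the same animal in 6 of 6. It held 5.25% ± 1.95 of kappa and 3.08% ± 1.27 of lambda clones, a log2 difference of 0.80 ± 0.14 with an adjusted p of 3.6e-06 in edgeR's quasi-likelihood test. The gene was called in every setting tried other than the fit without the animal block (adjusted p 0.999) and the fit within Naive B cells 1 (adjusted p 0.639, 8 IGHV4 genes tested).

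IGHV4-73 paired with kappa in 64.5% ± 14.7 of clones (41.7% to 80.0% over animals, 89 of 143 clones), above the other clones in 5 of 6 animals. Its log2 difference was 0.79 ± 0.25, with an adjusted p of 0.0210 in edgeR, and it was lost with DESeq2 (0.118) and without male 2 (0.201), female 2 (0.0864) or female 4 (0.0506). IGHV4-173, the most used gene, was at 45.1% ± 4.16. IGHV4S23, found in male 1 and female 3 only, was at 25.0% and 12.5% (8 of 40 clones) and was not tested, being in too few animals.

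**Figure D4:**
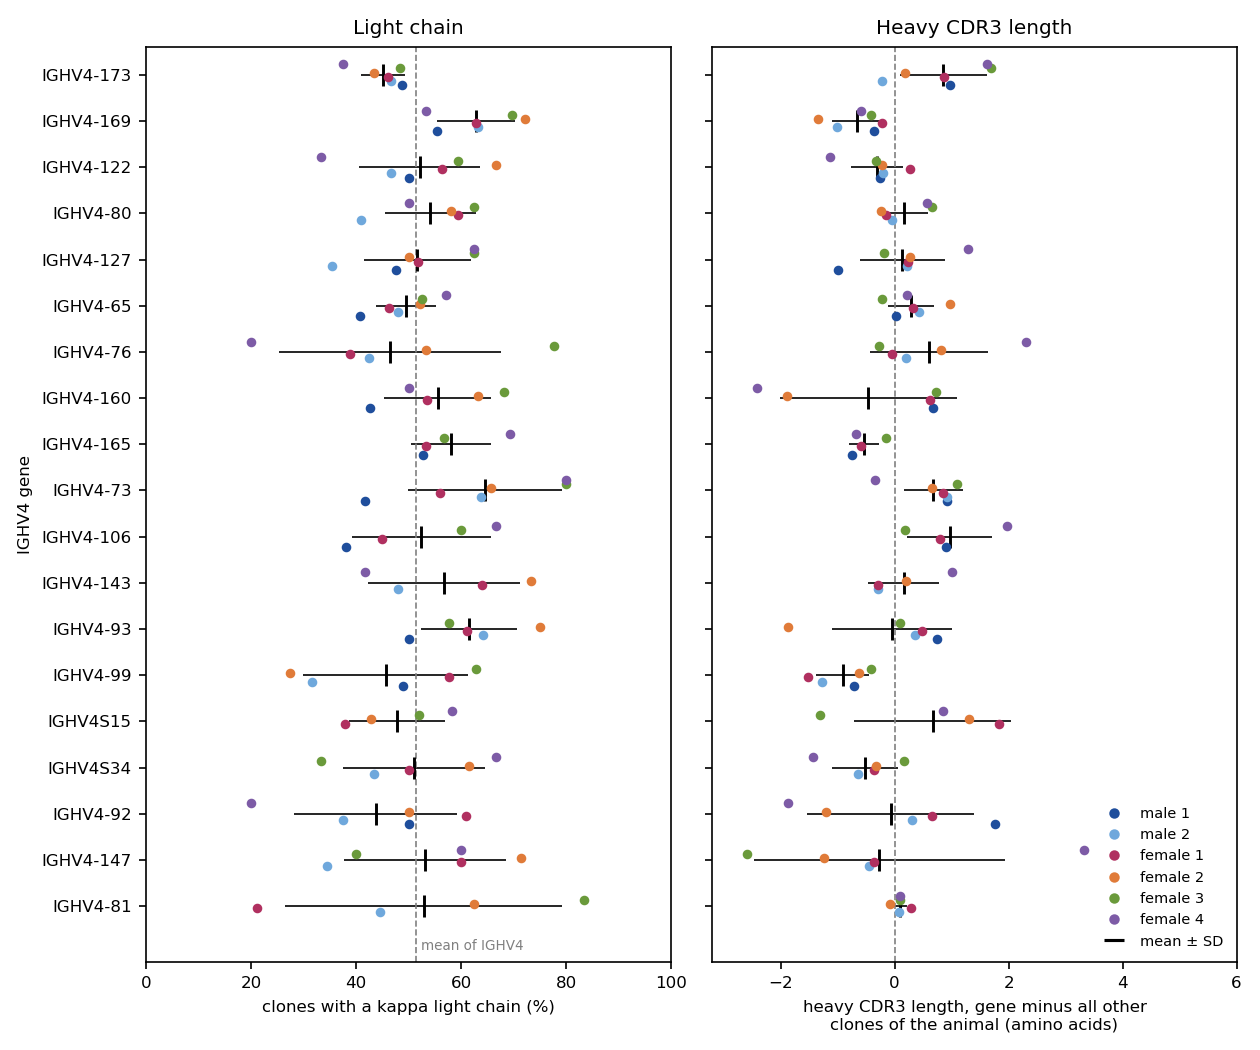
Kappa share of clones (left, percent) and heavy CDR3 length minus that of all other clones of the animal (right, amino acids) for IGHV4 genes with 5 or more clones in at least 4 animals, with 1 point per animal with 5 or more clones and the mean ± SD in black. The 6 animals of IGHV4-169 lie between 53.3% and 72.2% kappa and all left of 0 in CDR3 length, and those of IGHV4-173 between 37.5% and 48.7% kappa.

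The kappa partners of IGHV4-169 were many. Its 415 clones used 78 light chain V genes, led by IGKV1-32 (28 clones in 5 animals), IGKV1-22 (25 clones) and IGKV1-25 (23 clones). These held 6.75%, 6.02% and 5.54% of its clones against 4.79%, 3.77% and 5.26% of the other IGHV4 clones. These 3 light chain genes were also the most used over the whole family.

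Among all IGHV4 clones, IGKV1-25 was the most used light chain V gene, in 5.09% ± 1.26 of IGHV4 clones and 4.53% ± 1.01 of the others, then IGKV1-32 and IGKV1-22 (3.89% ± 3.46 and 2.93% ± 3.43). Of the 73 light chain V genes tested, 15.1% were called between IGHV4 and other clones, 5 higher with IGHV4 (6.85% of those tested) and 6 lower (8.22%). IGKV1-32 was in 3.86%, 2.24%, 5.80%, 3.94%, 7.77% and 4.76% of IGHV4 clones of males 1 and 2 and females 1 to 4, against 2.36%, 1.70%, 3.40%, 3.57%, 3.77% and 1.31% of the others. It was higher in 6 of 6 animals and spread over 30 IGHV4 genes, with a log2 difference of 0.76 ± 0.18 and an adjusted p of 0.00167 in edgeR. IGLV1-66 was in 2.82% ± 1.08 against 1.34% ± 0.776 (1.03 ± 0.22, 6 of 6 animals), IGKV1-37 in 1.19% ± 0.332 against 0.636% ± 0.314 (1.07 ± 0.32, 6 of 6) and IGKV3-40 in 1.09% ± 0.598 against 0.302% ± 0.328 (1.62 ± 0.38, 5 of 6 with none lower).

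Of the 6 light chain genes that IGHV4 clones used less, 5 were lambda. IGLV6-112 stood in 7 IGHV4 clones and 60 others, at 0.341%, 0.224%, 0%, 0.197%, 0.0914% and 0% of IGHV4 clones against 2.16%, 0.909%, 1.32%, 1.47%, 0.644% and 0.873%. It was lower in 6 of 6 animals, and the log2 difference was -2.91 ± 0.47 with an adjusted p of 2.2e-05 in edgeR. IGLV3-16 was in 0.476% ± 0.261 against 1.52% ± 0.555 (-1.64 ± 0.34, lower in 6 of 6), IGLV5-62 in 0.251% ± 0.282 against 1.22% ± 0.953 (-1.56 ± 0.48, 5 of 6) and IGKV4-1 in 0.329% ± 0.203 against 0.868% ± 0.544 (-1.40 ± 0.41, 5 of 6). IGLV6-112 and IGLV3-16 were called in every alternative that tested them, whereas without female 1 only 4 and without female 3 only 6 of the 11 genes were.

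**Figure D5:**
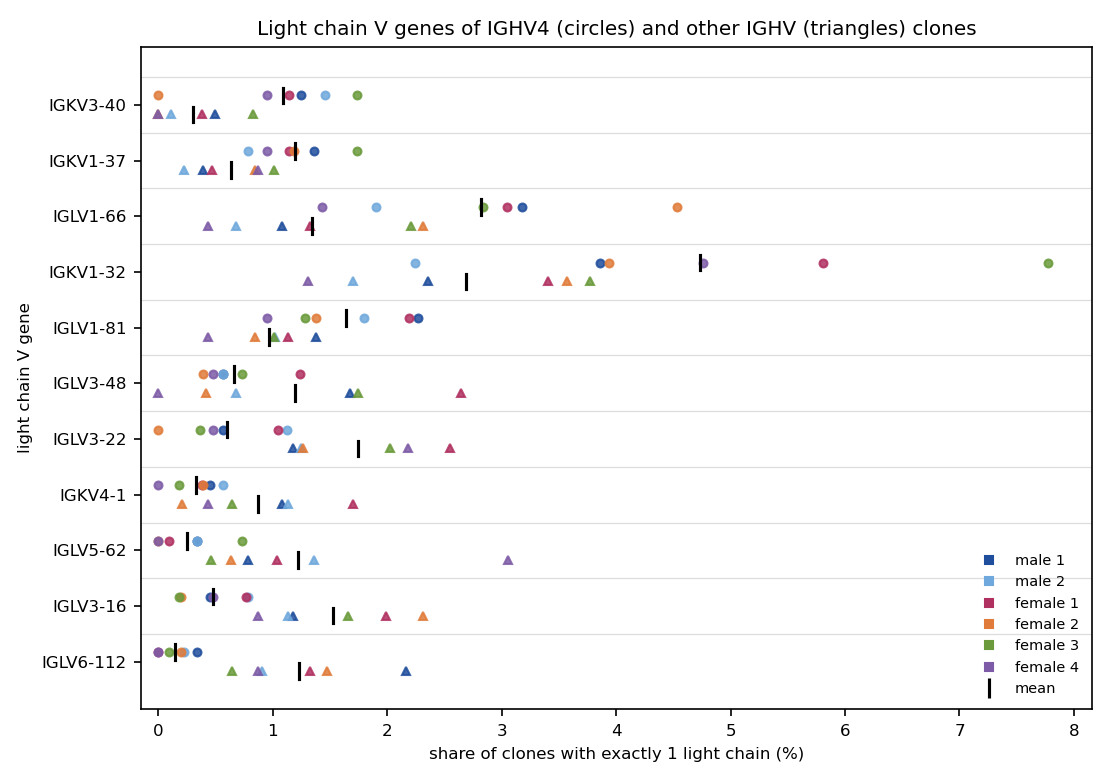
Share of clones with exactly 1 light chain (horizontal axis, percent) for the 11 light chain V genes called between IGHV4 clones (circles) and other IGHV clones (triangles), with 1 point per animal and the mean as a black bar. IGLV6-112 at the bottom is at 0% to 0.341% in IGHV4 and 0.644% to 2.16% in other clones, and IGKV1-32 is higher with IGHV4 in each of the 6 animals.

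Expanded clones were few. Of 5060 IGHV4 clones, 46 had 2 or more cells (0.909%, against 1.52% of other clones), 22 had cells in more than 1 subtype, and 5 had 3 or more cells. The CDR3s of these 5 are shown with the codons of the conserved cysteine and tryptophan in capitals, since shared CDR3 bases are part of how a clone is defined here.
IGHV4-143, male 2: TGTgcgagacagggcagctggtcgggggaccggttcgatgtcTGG
IGHV4-160, male 1: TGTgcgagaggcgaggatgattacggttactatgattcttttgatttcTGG
IGHV4-165, female 1: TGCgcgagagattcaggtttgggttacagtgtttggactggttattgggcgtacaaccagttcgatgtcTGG
IGHV4-80, male 2, shorter CDR3: TGTgcgacagaggggggtccctacTGG
IGHV4-80, male 2, longer CDR3: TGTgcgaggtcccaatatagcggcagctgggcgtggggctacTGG
The first had 5 cells, 3 in C-MBC 1 and 2 in M-MBC 2, all IgM, with IGHJ5-1 and the light chain gene IGLV8-125. The second had 4 IgG1 cells, 2 in CD11c+ MBC 2 and 1 each in M-MBC 1 and C-MBC 1, and the third 3 IgG1 cells, 2 in C-MBC 1 and 1 in M-MBC 1. In these 3 clones the V region was the same in every cell, at 3.70, 2.96 and 5.19 differences per 100 bases from the nearest common sequence. The 2 IGHV4-80 clones had 3 IgM cells each, with 3 distinct V regions in each, at 3.70 to 6.30 and at 9.26 to 10.4 differences per 100 bases. Cells of the first carried 2 light chain genes, IGKV1-19 and IGKV1-33, and those of the second carried IGLV1-64. Clones are defined here by the heavy chain alone, so the first may join cells of separate origin, which was not tested. Cells of each of the 5 clones were annotated to more than 1 subtype. Among IGHV4 heavy chains, 0 had the same gene, IGHJ and CDR3 amino acids in more than 1 animal.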

How the data were processed

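Per the labels' protocols, blood mononuclear cells of 6 animals gave 5' gene expression and B cell receptor libraries. Per the submitters' processing notes, the tools included Seurat 5.0.1, R 4.3.1 and Cell Ranger 9.0.1. For the build, the annotation and the reference of immunoglobulin genes, the versions are not given in the sources used here. Contig annotations per animal with UMI counts, a table of counts by gene and cell, and a cell table with the subtype were deposited by the authors. The cell table as deposited also held 2 columns of values in percent per cell, which were not used.

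Clones (distinct animal, V gene, IGHJ gene and CDR3 bases) were counted per V gene, animal and subtype for cells with exactly 1 productive heavy chain, and light chains for cells with exactly 1. All 13849 cells of the deposited cell table carry the doublet call Singlet, so no doublet caller was run, and cells with 2 or more heavy chains were left out by the rule. The 877 IGHV4 cells that are not in that table have no such call and entered no comparison. Sums under 10 clones were left out, and genes needed 30 clones and 4 animals. The edgeR 4.0.16 quasi-likelihood test (R 4.3.3, library size the total clones) had the animal as a block, except between sexes, and Benjamini-Hochberg adjustment ran over all V genes and, for subtypes, 9 subtypes. The samples pair because all groups within a comparison other than sex come from the same animals. Single values were compared by exact two-sided sign-flip permutation over animals, and CDR3 length of single genes (5 clones in 4 animals) with limma 3.58.1. Divergence was counted over the last 270 bases before CDR3, from the nearest common sequence of the same gene and animal. For this measure common sequences were taken over those 270 bases, in 3 or more unswitched clones. Shorter contigs and values above 20 per 100 bases were dropped. Markers were summed per animal as CPM. The models were tested on simulated data. 

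Alternatives were every cell in place of clones, TMM scaling, DESeq2 1.42.0, no filter, stricter minimums, Naive B cells 1 alone, no block and leaving out each animal. Values were given for the 8 most used genes, each gene called, up to 4 light chain genes per direction (those with the largest differences) and the 3 most used. IGHV4-99, IGHV4S13, IGHV4S15, IGHV4S16, IGHV4S17 and IGHV4S23 were named after their values were seen. The members and lists were chosen with earlier results of these data known. Intervals and upper limits cover counting error only.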

Additional observations from a re-analysis of the deposited data

Results flagged for a closer look

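Female 4 stood apart from the other animals in the IGHV4 share of 2 memory subtypes. Her share was 64.7% in CD11c+ MBC 1, where the next animal was at 52.9%, and 66.7% in CD11c+ MBC 2, where the next was at 51.5%. She had the fewest clones of the 6 animals. Of 23 groups of values examined in this way, chance marks about 1 in 20.

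IGHV4 heavy chains were also found outside the annotated B cells. The cluster named Contamination held 159 cells with an IGHV4 heavy chain, 55.4% of its cells with exactly 1 productive heavy chain. Barcodes that were not in the expression table held 877, or 47.8%. Neither set entered a comparison.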

How the results depend on the processing

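Leaving out 1 animal at a time moved the family share difference between memory and naive cells from -3.36 to 0.226 points (0.165 without female 1), the divergence difference from -0.0233 to 0.299, the CDR3 length difference from 0.152 to 0.318 amino acids, the kappa difference from 3.14 to 4.17 points and the IGHJ4 difference from -4.82 to -3.06 points, the last 2 with an exact permutation p of 0.0625, the smallest for 5 animals. IGHV4 calls numbered 0 to 4 for subtypes (0 without male 1 or male 2, 1 without female 1), 1 to 3 for kappa (1 without male 2, female 2 or female 4), 0 to 5 for sex (2 without male 1, 5 without male 2, each with 1 male, assumed to vary like the females), 4 to 10 for partners (4 without female 1, 6 without female 3) and 0 to 3 for CDR3 length (3 without female 4).

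The fit with no replicate block, which drops the pairing by animal, called 0 genes for subtypes, 0 for kappa and 2 for partners. TMM scaling called 10 for subtypes and 2 for sex. DESeq2 called 6 for subtypes, 3 for sex, 1 for kappa and 6 for partners. Counting every cell gave 1 call for switched clones, and a minimum of 10 clones gave 2 for CDR3 length. Within Naive B cells 1 the kappa difference was 3.53 points with an exact permutation p of 0.344, and there were 0 calls for kappa and 0 for partners. Apart from partners, these counts and those of the preceding paragraph cover IGHV4 genes only. How many of all V genes each alternative called is not given here, so the counts are not read as a trait of IGHV4. Of 10 genes changed 2-fold in simulated data, the test recovered 1 for subtypes, where only M-MZL BC was changed. It recovered 8 for partners, 7 for kappa and 8 for switched clones, the last with 2 false calls. The simulation used 1 draw of genes and an assumed spread of counts. At this depth most changes of that size in M-MZL BC would be missed, and the other subtypes were not simulated. The cause of the changes between settings was not tested.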
